A study of Mus musculus with 10 samples.

Results

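The guanylate-binding proteins (GBPs) are large GTPases encoded by the Gbp genes, and every row of the deposited table whose symbol is Gbp followed by a number was taken as a member. There were 9 such rows among 32361, namely Gbp2, Gbp3, Gbp4, Gbp5, Gbp7, Gbp8, Gbp9, Gbp10 and Gbp11, and all 9 reached 1 FPKM (fragments per kilobase of transcript, scaled to the mapped fragments of the library) in at least 1 fraction. The lowest member to reach it was Gbp11, at 1.05 FPKM, and no member stayed below, so this threshold removed no row. The RefSeq annotation lists 11 genes of this name on the same assembly. Gbp2b and Gbp6 have no row of their own.

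RNA was measured in fractions of E14Tg2a.4 mouse embryonic stem (ES) cells, an established line, sorted on fluorescent reporters. One line carried knock-in reporters at both Esrrb and Tbx3 and was sorted into 3 fractions. Those labelled Esrrb-Negative Tbx3-Negative are called double-negative here. Esrrb-Positive Tbx3-Negative cells are called single-positive, and double-positive stands for Esrrb-Positive Tbx3-Positive. In the other line a Zscan4c promoter fragment in a piggyBac construct (spelled PiggbyBac in the labels) drove the reporter, and Zscan4c-Negative and Zscan4c-Positive cells were collected. The labels name 2 libraries per fraction, 10 in all, collected on different days, and no treatment. The deposited table holds 1 merged value per fraction, so no value below has an SD, an interval or a test, and spread between libraries is unknown. A promoter-fragment reporter at an inserted site need not follow the gene's own promoter, and the labels do not say whether either line was 1 clone.

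GBPs belong to the dynamin superfamily. They are best known as products of cells stimulated by interferon gamma, whose receptor activates the kinases JAK1 and JAK2. Promoters of responding genes can carry gamma-activated sequences (GAS) and interferon-stimulated response elements (ISRE), and the latter are bound by interferon regulatory factors such as IRF1. GBPs assemble on the vacuoles and membranes of intracellular pathogens, where they act with the immunity-related GTPases (IRG) and the inflammasome. Pluripotent cells are known for weak interferon responses.

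The 4 members on chromosome 3 lie in 1 cluster on the plus strand, with Gbp2b between Gbp3 and Gbp2, and the bases upstream of their start sites are shown because they hold matches to both kinds of element. Capitals mark an ISRE core (GAAA, any 2 bases and GAAA, read on either strand) or a GAS (TTCNNNGAA, the same on both strands). Each sequence is the 250 bases before a RefSeq start site on GRCm38.p6, plus strand, 5′ to 3′.
Gbp5, chr3:142496684-142496933: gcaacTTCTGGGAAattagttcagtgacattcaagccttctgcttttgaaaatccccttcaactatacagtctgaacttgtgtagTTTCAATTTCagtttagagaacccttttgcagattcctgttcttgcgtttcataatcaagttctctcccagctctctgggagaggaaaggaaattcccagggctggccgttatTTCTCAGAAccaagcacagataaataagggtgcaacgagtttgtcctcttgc
Gbp7, chr3:142530086-142530335: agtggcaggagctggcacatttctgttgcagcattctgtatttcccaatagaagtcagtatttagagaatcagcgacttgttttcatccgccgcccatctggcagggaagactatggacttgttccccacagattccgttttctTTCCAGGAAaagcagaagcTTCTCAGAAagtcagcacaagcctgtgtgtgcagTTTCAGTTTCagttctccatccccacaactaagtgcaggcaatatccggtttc
Gbp3, chr3:142559794-142560043: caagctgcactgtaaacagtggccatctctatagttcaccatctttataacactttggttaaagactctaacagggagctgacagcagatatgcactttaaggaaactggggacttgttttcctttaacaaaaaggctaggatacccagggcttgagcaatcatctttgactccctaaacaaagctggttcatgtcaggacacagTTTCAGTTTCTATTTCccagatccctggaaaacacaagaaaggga
Gbp2, chr3:142620413-142620662: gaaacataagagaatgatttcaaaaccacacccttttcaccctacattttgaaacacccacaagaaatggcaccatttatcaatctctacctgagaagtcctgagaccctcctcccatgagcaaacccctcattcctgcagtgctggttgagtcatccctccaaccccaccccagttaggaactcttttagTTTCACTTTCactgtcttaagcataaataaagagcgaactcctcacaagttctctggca
Every one of these 4 windows held an ISRE core, on the minus strand. It began 165 bases before the start site in Gbp5, 53 in Gbp7, 45 in Gbp3 and 59 in Gbp2. Gbp3 had another that overlapped the first, beginning 39 bases before the start site, and a further RefSeq start site of Gbp3 had no match of either kind in its window. GAS matches stood at 245 and 52 bases in Gbp5 and at 106 and 87 bases in Gbp7, and these letters were not in the Gbp3 and Gbp2 windows. No match of one motif overlapped a match of the other. Of all 32851 promoter windows of this length, 2.98% held an ISRE core and 7.02% a GAS. Gbp2b, which has no row, also held 1 ISRE core. No promoter sequence was used for Gbp4, Gbp6, Gbp8, Gbp9, Gbp10 and Gbp11. A match is a description of letters and not a measured binding site.

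**Figure D1:**
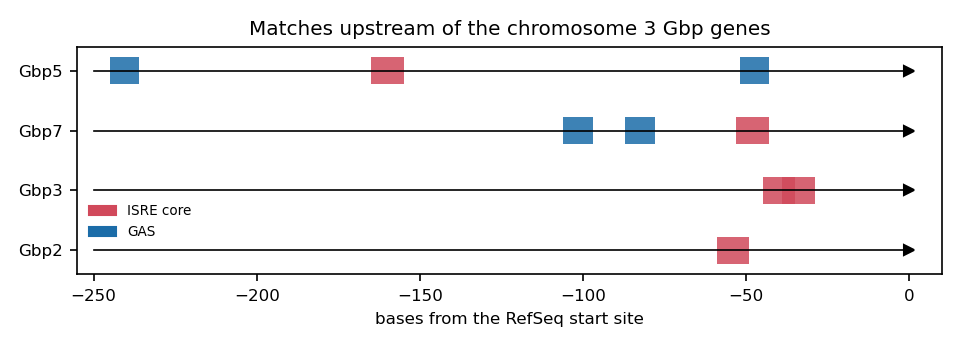
Positions of ISRE core (red) and GAS (blue) matches in the 250 bases before the RefSeq start sites of the 4 chromosome 3 members, with the x axis in bases from the start site. Each line has at least 1 red bar, and blue bars are on the Gbp5 and Gbp7 lines.

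The row of Gbp2 covers chr3:142620663-142638008 (mm10), which equals the RefSeq gene. The rows of Gbp5, Gbp7 and Gbp3 carry 1 common span, from 142496934 to 142619176 on chromosome 3. That span takes in the annotated Gbp5, Gbp7 and Gbp3 genes and all but the last bases of Gbp2b. The Gbp5 row holds 5 transcript identifiers, and the table does not say whether some belong to Gbp2b. On chromosome 5 the rows run from 105014153 (Gbp8) to 105346472 (Gbp11), with Gbp9, Gbp4 and Gbp10 between them. The Gbp10 row, with 4 identifiers, spans 105215699 to 105293699 and so takes in most of the annotated Gbp6. RefSeq lists Gbp11 as a transcribed pseudogene and the other 8 as protein-coding.

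Reads can be split between near-identical copies, so the longest protein-coding GENCODE M21 transcript of each gene was cut into all words of 50 bases. In Gbp10, 50.2% of words also occurred in another family member, mostly in Gbp6. The share was 34.5% in Gbp11, 20.2% in Gbp8, 11.8% in Gbp4 and 7.48% in Gbp9. On chromosome 3 it was 4.79% in Gbp3, 2.28% in Gbp7, 2.07% in Gbp2 and 0 in Gbp5. By shared words, levels of Gbp10 and Gbp11 are therefore the least certain as levels of 1 gene. This measure cannot show whether the Gbp5 row also counts Gbp2b transcripts, so the Gbp5 level may not be that of 1 gene.

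All 9 members had their highest level in double-negative cells. Gbp2, the most abundant, was at 29.1 FPKM for double-negative, 4.39 for single-positive, 0.891 for double-positive, 7.15 for Zscan4-negative and 1.09 for Zscan4-positive cells. Gbp5, known to promote inflammasome assembly, was at 15.6, 1.29, 0.341, 4.44 and 0.890 FPKM across these fractions as ordered for Gbp2, an order kept below. In both genes the Zscan4-negative fraction came next after the double-negative one, above single-positive cells, and the double-positive fraction was lowest. Fewer expressing cells and less RNA per cell cannot be told apart in such bulk fractions.

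Gbp3 was at 8.46 FPKM for double-negative, 1.36 for single-positive, 0.312 for double-positive, 1.27 for Zscan4-negative and 0.291 for Zscan4-positive cells. Its single-positive and Zscan4-negative levels were nearly the same. Gbp7, which is linked to host defence together with other GBPs, was at 6.10, 2.86, 0.160, 0.474 and 0.112 FPKM. It kept 0.469 of its double-negative level in single-positive cells, more than the other 3 chromosome 3 members did.

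On chromosome 5, Gbp4 was at 9.83 FPKM for double-negative, 5.39 for single-positive, 0.879 for double-positive, 1.59 for Zscan4-negative and 0.457 for Zscan4-positive cells. Gbp8 was at 7.10, 4.68, 0.0791, 0.0626 and 0.215 FPKM. As ratios, the double-negative level was 1.82 times the single-positive level for Gbp4 and 1.52 times for Gbp8. The single-positive level was 6.1 and 59.2 times the double-positive level. In FPKM the drops of Gbp4 over these steps were about equal. Gbp9 was at 2.98, 1.47, 0.320, 0.582 and 0.380 FPKM. Gbp10 was at 3.14, 1.98, 0.0510, 0.0495 and 0.0566 FPKM, and Gbp11 at 1.05, 0.786, 0.0186, 0.0264 and 0.0104 FPKM. In Gbp7, Gbp8, Gbp9, Gbp10 and Gbp11 no fraction other than double-negative and single-positive cells reached 1 FPKM. These 5 could pass the threshold through those fractions alone, so no weight is placed on their being higher there.

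**Figure D2:**
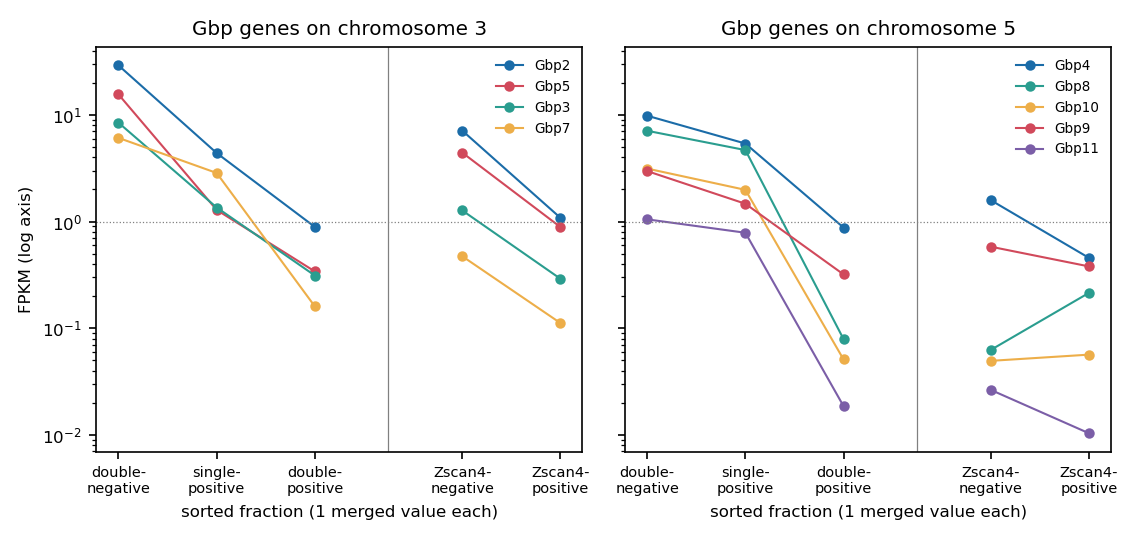
FPKM (log axis) of each Gbp gene in the 5 sorted fractions, 1 merged value per point, with chromosome 3 members on the left, chromosome 5 members on the right and the dotted line at 1 FPKM. Lines join fractions of 1 reporter line. Gbp2, Gbp5 and Gbp3 drop steeply between double-negative and single-positive cells, and the chromosome 5 members drop mainly after single-positive cells.

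In the Esrrb step, single-positive cells were set against double-negative cells, both with the Tbx3 reporter off. The 3 members at least 2-fold lower were Gbp5, Gbp2 and Gbp3, with differences of log2(FPKM + 1) of -2.86, -2.48 and -2.01. On the FPKM scale, the double-negative level was 12.1 times the single-positive level for Gbp5, 6.64 times for Gbp2 and 6.24 times for Gbp3. Over all 13595 compared rows, 1.43% were at least 2-fold lower and 1.82% at least 2-fold higher. The other 6 members were lower by less, from -0.88 for Gbp7 to -0.20 for Gbp11, and none was higher. Gbp11, which is part of the medians below, reached 1 FPKM in double-negative cells alone. No weight is placed on its being lower here. The median difference was -0.76 over the 9 members and -0.02 over all compared rows. It was -2.24 over the 4 members on chromosome 3 and -0.51 over the 5 on chromosome 5. This grouping by chromosome was made after the values had been seen.

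Summed levels of fibroblast and T-lineage markers differed between the fractions. The summed level of 13 fibroblast markers was 1713 FPKM for double-negative and 1221 for single-positive cells, against 24.9 to 35.5 in the other 3 fractions. That of 13 T-lineage markers was 558 and 404 FPKM, against 23.03 to 37.3. Among all 26, only Lum was listed at 0 anywhere, in both Zscan4 fractions. Not every marker followed its sum. Dcn, Lum, Cd4 and Cd5 stayed below 1 FPKM in all fractions. Cd2 was at 4.49 FPKM for double-negative and 5.15 for single-positive cells, and Zap70 at 3.82 and 3.78. The summed level of 10 macrophage and myeloid markers was 13.2 to 19.2 FPKM, most of it Cd68, of 5 B-lineage markers 1.46 to 3.37 and of 5 endothelial markers 4.60 to 7.82. Fcgr1, Adgre1, Aif1, Ms4a1, Pax5 and Emcn were each listed at 0 in at least 1 fraction. ES cell identity was checked on 8 markers, which summed to 4577 FPKM for double-negative cells and 5604 to 7021 in the others, with Pou5f1 at 1987 FPKM or more throughout.

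The members differed in how much of their double-negative level single-positive cells had, given here as the ratio of these levels. Over the 18 fibroblast and T-lineage markers with at least 5 FPKM in double-negative cells the median ratio was 0.712. Among them Twist1 had the lowest, 0.482, and the next was that of Gzmb, 0.658, while the highest was that of Lck, 0.884. Gbp11 (0.749) and Gbp8 (0.659) lay within that range without Twist1, Gbp10 (0.632) just below it, and Gbp4 (0.548) and Gbp9 (0.494) lay between Gzmb and Twist1. Gbp7 (0.469), Gbp3 (0.160), Gbp2 (0.151) and Gbp5 (0.0826) lay below all 18 markers.

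A component with the markers' ratio of 0.712 cannot exceed what the single-positive level permits, and that bound was computed for each member. With the largest such component removed, 88.4% of the double-negative level remained for Gbp5 (13.8 of 15.6 FPKM), 78.8% for Gbp2 (22.98 of 29.1 FPKM) and 77.5% for Gbp3 (6.55 of 8.46 FPKM). For Gbp7 34.1% remained, for Gbp9 30.6% and for Gbp4 22.9%. For Gbp10 and Gbp8 11.2% and 7.38% remained, and for Gbp11 nothing. The bound takes 1 ratio for all transcripts of such cell types, and their part in any Gbp level was not tested.

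**Figure D3:**
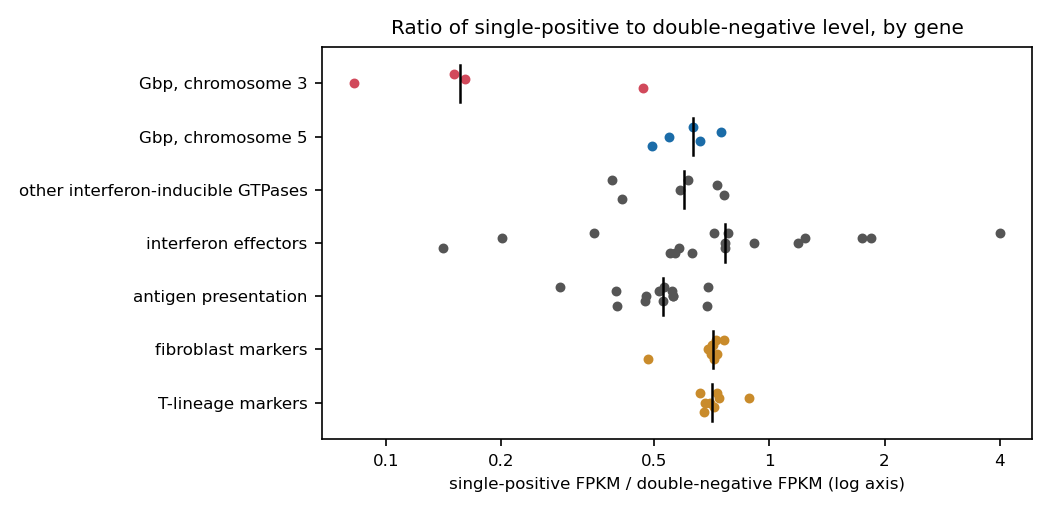
Single-positive FPKM divided by double-negative FPKM (log axis), 1 point per gene, for the Gbp genes by chromosome, 3 interferon lists and the fibroblast and T-lineage markers with at least 5 FPKM in double-negative cells; black lines are medians. Marker medians are 0.712 and 0.710, and the 3 leftmost Gbp points are Gbp5, Gbp2 and Gbp3, at 0.0826 to 0.160.

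The Zscan4 sort uses neither of those columns. Zscan4-positive cells, which carry transcripts of the 2-cell embryo, had lower levels of Gbp2 and Gbp5 than Zscan4-negative cells, with differences of log2(FPKM + 1) of -1.96 and -1.53. The Zscan4-negative level was 6.58 times the positive level for Gbp2 and 4.99 times for Gbp5. These were the 2 members at least 2-fold lower, against 0.875% of all compared rows, and none was at least 2-fold higher, against 3.46%. Gbp4 (-0.83), Gbp3 (-0.82) and Gbp7 (-0.41) did not reach 2-fold on this scale, yet their FPKM ratios were 3.48, 4.37 and 4.23. The added 1 outweighs such low levels, and Gbp3 and Gbp4 pass 2-fold with a pseudocount of 0.5, Gbp7 with 0.1.

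All 4 chromosome 3 members were lower in Zscan4-positive cells, with FPKM ratios of negative to positive from 4.23 to 6.58. Their summed level was 13.3 FPKM for Zscan4-negative and 2.38 for Zscan4-positive cells. The fibroblast marker sum was 24.9 and 35.5 FPKM in these fractions and the T-lineage sum 26.3 and 23.03. Single markers could move further than their sum, with Thy1 at 2.12 and 8.37 FPKM and Cd2 at 2.51 and 1.34. The part of other cell types in these differences was not tested. On chromosome 5 the differences of Gbp9 (-0.20), Gbp11 (-0.02), Gbp10 (0.01) and Gbp8 (0.19) were small. Gbp8, Gbp10 and Gbp11 were below 0.3 FPKM in both fractions, and their order there is not read.

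**Figure D4:**
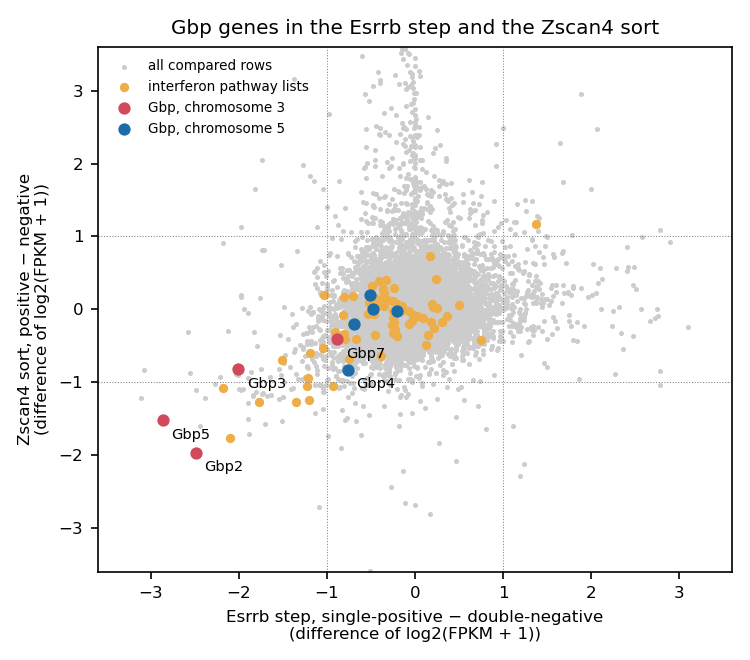
Difference of log2(FPKM + 1) in the Esrrb step (x axis) and in the Zscan4 sort (y axis) for all compared rows (grey), the interferon pathway lists (yellow) and the Gbp genes (red and blue by chromosome); dotted lines mark 2-fold and 71 rows lie outside the plotted range of 3.6 in either direction. Gbp2 and Gbp5 lie below -1 on both axes and the chromosome 5 members lie nearer the centre.

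These comparisons share no column, so their calls could be set side by side over all rows. Of the 13595 compared rows, 195 were at least 2-fold lower in the Esrrb step and 119 in the Zscan4 sort. In both were 46 of the 13595 rows, which is 23.6% of the first and 38.7% of the second. Among the 46 were 2 of the 9 members, Gbp2 and Gbp5, and 6 of the 71 compared pathway rows: Irf1, Irgm1, 9930111J21Rik2, Zbp1, Oasl2 and Psmb10.

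In the Tbx3 step, double-positive cells were set against single-positive cells. Gbp8 (-2.40), Gbp4 (-1.77), Gbp7 (-1.73), Gbp2 (-1.51) and Gbp10 (-1.51) were at least 2-fold lower, against 6.94% of all compared rows, and no member was higher, against 0.346%. The other 4 ranged from -0.90 for Gbp9 to -0.77 for Gbp5. Of those called, Gbp7, Gbp8 and Gbp10 could pass the threshold through double-negative and single-positive cells alone, so no weight is placed on their calls. Gbp2, Gbp3, Gbp4 and Gbp5 also reached 1 FPKM in Zscan4-negative cells. Among them the order differed from that of the Esrrb step: Gbp4 led here and Gbp5 was last on the log2 scale. The fibroblast and T-lineage marker sums went from 1221 and 404 to 30.4 and 37.3 FPKM over the same step, and their part in these differences was not tested. With the marker-ratio component removed, the single-positive level is 0 by construction for 8 members and 0.0388 FPKM for Gbp11, so the bound leaves nothing of this step.

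Between the ends of the series, double-positive against double-negative cells, all 9 members were at least 2-fold lower, against 12.2% of all compared rows. Of these rows, 3.81% were at least 2-fold higher. Gbp7, Gbp8, Gbp9, Gbp10 and Gbp11 could pass the threshold through double-negative and single-positive cells alone, so no weight is placed on their calls. Differences ran from -3.99 for Gbp2 and -3.63 for Gbp5 to -1.01 for Gbp11. With the same component removed, Gbp2, Gbp5, Gbp3 and Gbp7 kept a difference of at least 2-fold. The 5 members on chromosome 5 did not. That split follows by construction from each member's levels and the 1 ratio of 0.712, while the markers' ratios ran from 0.482 to 0.884. The part of other cell types was not tested. The comparison of the ends shares its columns with the Esrrb and Tbx3 steps and is no separate evidence.

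Genes of the interferon pathway were read from 9 lists with 107 symbols. Over all compared rows, the shares at least 2-fold lower were 1.43% in the Esrrb step and 6.94% in the Tbx3 step. Between the ends the share was 12.2%, and in the Zscan4 sort 0.875%. The fibroblast and T-lineage marker sums also fell over the Tbx3 step and between the ends. Their part in the list counts below was not tested. Of 10 interferon ligand genes none reached 1 FPKM in any fraction. The highest value was that of Ifnk, at 0.851 FPKM for Zscan4-positive cells and at most 0.0465 in the other fractions. Ifng was at 0.213 to 0.334 FPKM, and Ifnb1, Ifna1, Ifna2, Ifne, Ifnl2 and Ifnl3 were listed at 0 throughout. All 6 receptor genes reached 1 FPKM and none differed 2-fold in the Esrrb step or the Zscan4 sort. In the Tbx3 step 2 were lower, and between the ends 2 were. Ifngr1, the ligand-binding chain of the interferon gamma receptor, was at 23.3 FPKM for double-negative, 16.7 for single-positive, 2.49 for double-positive, 3.26 for Zscan4-negative and 2.34 for Zscan4-positive cells, with a single-positive to double-negative ratio of 0.717, close to the markers' median.

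Of 10 compared JAK-STAT genes, none differed 2-fold in the Esrrb step or the Zscan4 sort. In the Tbx3 step 3 were lower, and between the ends 4 were. Socs1, an inhibitor of JAK signalling, was at 35.7 FPKM for double-negative and 26.3 for single-positive cells and at 4.43 to 7.12 in the others.

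Among 7 compared interferon regulatory factor and coactivator genes, Irf1 alone was lower in the Esrrb step and in the Zscan4 sort, and none was higher. In the Tbx3 step 2 were lower, and between the ends 4 were. Irf1 was at 84.2 FPKM for double-negative, 35.4 for single-positive, 25.2 for double-positive, 30.4 for Zscan4-negative and 14.1 for Zscan4-positive cells. Its order of fractions differed from that of Gbp2 in that single-positive stood above Zscan4-negative cells and Zscan4-positive cells were lowest. Irf2, at 5.40 and 3.62 FPKM across double-negative and single-positive cells, was at 0.139 to 0.190 FPKM in the other fractions.

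Of 6 compared rows of other interferon-inducible GTPases, 2 were lower in the Esrrb step and the same number in the Zscan4 sort, with none higher. In the Tbx3 step 4 were lower, and between the ends 5 were. Irgm1, a regulatory IRG protein gene, was at 25.9 FPKM for double-negative, 10.7 for single-positive, 2.23 for double-positive, 4.30 for Zscan4-negative and 1.23 for Zscan4-positive cells. 9930111J21Rik2 was at 200.04, 77.7, 53.7, 81.1 and 32.9 FPKM. Both therefore had more RNA in Zscan4-negative than in Zscan4-positive cells, as Gbp2 did. Igtp, another IRG gene, was at 15.2 and 8.93 FPKM across double-negative and single-positive cells and at 0.946 to 1.24 FPKM elsewhere.

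Of 17 compared interferon effector genes, 3 were lower and 1 higher in the Esrrb step, and 2 were lower and 1 higher in the Zscan4 sort. In the Tbx3 step 1 was lower, and between the ends 6 were lower and 1 higher. Oasl2, an OAS-like gene, was at 9.62 FPKM for double-negative, 1.35 for single-positive, 0.334 for double-positive, 2.00 for Zscan4-negative and 0.417 for Zscan4-positive cells. Zbp1, a nucleic acid sensor, was at 22.98, 4.61, 2.66, 5.40 and 0.889 FPKM. The tetherin gene Bst2 was at 255 against 89.3 FPKM in the Esrrb step. Oas1a ran the other way, at 1.14 FPKM for double-negative, 4.57 for single-positive, 8.01 for double-positive, 2.96 for Zscan4-negative and 7.88 for Zscan4-positive cells. Interferon-induced genes were thus not uniformly highest in double-negative cells.

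Of 13 antigen presentation genes, 5 were lower in the Esrrb step, 9 in the Tbx3 step, all 13 between the ends and 2 in the Zscan4 sort, with none higher. Psmb10, an immunoproteasome subunit, was at 76.7 FPKM for double-negative, 21.8 for single-positive, 10.9 for double-positive, 25.4 for Zscan4-negative and 9.90 for Zscan4-positive cells. Psmb8, another such subunit, was at 69.1, 35.7, 1.73, 5.03 and 1.91 FPKM. B2m, the light chain of MHC class I, was at 240 and 166 FPKM across double-negative and single-positive cells and at 25.4 to 27.0 FPKM elsewhere, with a ratio of 0.693.

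Of 6 compared inflammasome and pyroptosis partners none differed 2-fold in the Esrrb step or the Zscan4 sort. In the Tbx3 step 1 was lower, and between the ends 3 were. Tmem173, which encodes the adaptor STING, was at 7.65 and 5.16 FPKM across double-negative and single-positive cells and at 0.183 to 0.506 FPKM elsewhere. The 6 prenylation enzyme genes, of interest because some GBPs carry a lipid anchor, reached 2-fold in no comparison.

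Genes with the most similar profiles were found by Euclidean distance of log2(FPKM + 1) over the 5 fractions, after centring, among 9641 protein-coding rows with at least 5 FPKM. For Gbp2 they were Gbp5 (distance 0.822), Oasl2 (0.961) and Enpp2 (1.00). For Gbp5 they were Enpp2 (0.566), the kinase gene Pim2 (0.610) and Oasl2 (0.785). For Gbp3 they were Oasl2 (0.318), Psmb10 (0.398) and Parp12 (0.484). Oasl2 was thus among the 3 nearest genes of all 3 members that were at least 2-fold lower in the Esrrb step. Its distances from Gbp2 and Gbp5 were larger than that of any neighbour given for Gbp3.

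The neighbours of the remaining members were others. For Gbp7 they were Bcl2 (0.285), Parva (0.304) and Eif4e3 (0.314), and for Gbp4 Capn2 (0.242), Mgst1 (0.274) and Isg15 (0.292). For Gbp8 they were Cd248 (0.0604), Serpinb6b (0.106) and Nrn1 (0.126). Cd248, a surface protein gene of fibroblasts and pericytes, was at 7.42 FPKM for double-negative, 5.20 for single-positive and at most 0.276 FPKM in the other fractions. Gbp8 itself reached 1 FPKM in double-negative and single-positive cells alone, and the part of fibroblasts in its level was not tested.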

How the data were processed

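RNA-seq values of 10 libraries in 5 fractions were used as deposited. The submitters' processing notes name build mm10, TopHat2 2.0.14, Cuffdiff 2.2.1, Cufflinks and bcl2fastq 1.8.4, without their roles. For annotation, strand handling and the merging of replicates, the method is not given in the sources used here. The authors deposited FPKM values, 1 per row and fraction. Column totals were 507495 to 552117 FPKM, and depth is unknown: low values showed no common step, with at most 3.15% of low rows in any narrow bin of the ratio between a pair of columns.

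Rows reaching 1 FPKM in at least 1 fraction (13595) were compared by the difference of log2(FPKM + 1). This understates differences of low genes. A change of 2-fold was the size rule, with no test. All 9 members matched a RefSeq symbol. From each pathway list up to 4 genes with the largest difference past 2-fold and at least 5 FPKM were eligible to be named, with Irf1 always and 1 other gene that is not reported here; genes at low levels named beside them were chosen after their values were seen. For members reaching 5 FPKM the 3 nearest genes were named. The members and lists were chosen with earlier results of these data known. Planted changes were set in simulated columns without noise, so their recovery followed from the size rule and says nothing of library spread. Python 3.11.15, pandas 2.3.3, numpy 2.4.6 and matplotlib 3.10.9 were used.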

Additional observations from a re-analysis of the deposited data

How the results depend on the processing

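The alternatives were pseudocounts of 0.1 and 0.5, no filter and a filter of 5 FPKM, equal FPKM totals, median-ratio scaling, summed rows of 1 symbol, and removal of the marker-ratio component. Of 56 counts of members recomputed under the alternatives other than that removal, 52 stayed within 1.5 times the main count. The count lower in the Tbx3 step went from 5 to 9 with either pseudocount, and that in the Zscan4 sort from 2 to 5 with 0.1 and 4 with 0.5; a smaller pseudocount weights low levels more by construction. Under the removal, a setting applied to the counts after seeing the data, the count lower went from 3 to 5 in the Esrrb step, from 5 to 0 in the Tbx3 step and from 9 to 4 between the ends. Of 267 recomputed differences of single members, 237 kept their direction and their side of 2-fold, 16 newly passed it, 4 no longer did and 10 turned sign. Removing the component turned the Tbx3 step to 0.42 for Gbp5, 0.21 for Gbp7, 0.39 for Gbp3, 0.92 for Gbp2, 0.11 for Gbp8, 0.40 for Gbp9, 0.91 for Gbp4 and 0.072 for Gbp10, since it sets their single-positive level to 0. For Gbp11 it turned the Esrrb step to 0.055 and the ends to 0.027. No scaling changed a direction or a call of a member. No paired analysis was possible because the 2 libraries of each fraction are merged into 1 column, which also prevents leaving out a library.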

Other observations

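Zscan4-negative and double-positive cells come from different reporter lines, so line and sorted state cannot be told apart between them. Gbp2 was at 7.15 FPKM in Zscan4-negative and 0.891 in double-positive cells, a ratio of 8.02, and Gbp5 at 4.44 and 0.341 FPKM, a ratio of 13.0. For Gbp3 and Gbp7 the ratios were 4.08 and 2.96. For Gbp4 and Gbp9 they were 1.81 and 1.82, and Gbp8, Gbp10 and Gbp11 were below 0.1 FPKM in both fractions. The sums of fibroblast markers in these fractions were 24.9 and 30.4 FPKM, and those of T-lineage markers 26.3 and 37.3 FPKM. Their part in these ratios was not tested.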
